A study of Mus musculus with 4 samples.

Results

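Keratins are the intermediate filament proteins of epithelial cells, and the urothelium that lines the ureter carries a set of them that changes from its basal to its superficial layer. The set described here was a list of 10 gene names, Krt4, Krt5, Krt7, Krt8, Krt13, Krt14, Krt15, Krt18, Krt19 and Krt20, and all 10 were found among the 19296 genes of the array, each with 1 probe set. They were measured in whole ureter of male mice of a 129Sv/C57BL6 mix, in 2 knockout mice (miR-143/145-/-) aged 2.5 months with hydronephrosis, a kidney swollen by retained urine, and in 2 wild type mice (miR-143/145+/+) aged 4.5 months with normal kidneys. One array was hybridised per mouse, and the study asked how loss of the smooth muscle microRNAs miR-143 and miR-145 alters the ureter. The knockout mice thus differed from the wild type mice in age and kidney state as well as in genotype, and these cannot be told apart here. The labels do not say how the deletion was made or in which cells.

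A keratin filament is built from pairs of a type I and a type II protein. Among the 10 genes, Krt4, Krt5, Krt7 and Krt8 encode type II proteins and the other members encode type I proteins, and the usual partnerships are Krt5 with Krt14 or Krt15, Krt8 with Krt18, and Krt4 with Krt13. In urothelium Krt5 marks the basal layer and Krt14 a subset of its cells. Krt15 is a basal keratin of stratified epithelia, and Krt4 and Krt13 are keratins of the layers above in moist stratified epithelia. Krt7, Krt8, Krt18 and Krt19 are keratins of simple epithelia that urothelium also makes, and Krt20 marks the superficial umbrella cells. For the comparison by layer, Krt5, Krt14 and Krt15 were taken as basal and the other 7 members as intermediate and superficial.

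The members lie in the keratin clusters of mouse chromosomes 11 and 15, with 5 members on each chromosome; Krt18 is the type I gene that sits beside its partner Krt8 on chromosome 15. RefSeq promoter windows, from 250 bases before to 50 bases after a transcription start, were at hand for 7 of the 10 members (8 windows, 2 of them for Krt13). The 250 bases before the outermost annotated start are shown for a basal and a superficial gene with high signal, for Krt18 of the simple type, and for a gene with signal below background. Capitals mark TATA-like letters, ATAAAAG or TATAAA on the gene's own strand, a motif chosen after the sequences were read.
Krt5 (basal, bright, GRCm38.p6, chr15:101712906-101713155, minus strand): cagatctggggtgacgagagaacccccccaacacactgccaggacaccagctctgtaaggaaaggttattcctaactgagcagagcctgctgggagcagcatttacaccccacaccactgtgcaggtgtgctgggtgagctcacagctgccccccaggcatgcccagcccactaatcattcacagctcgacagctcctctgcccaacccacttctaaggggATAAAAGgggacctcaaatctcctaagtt
Krt20 (superficial, bright, GRCm38.p6, chr11:99438154-99438403, minus strand): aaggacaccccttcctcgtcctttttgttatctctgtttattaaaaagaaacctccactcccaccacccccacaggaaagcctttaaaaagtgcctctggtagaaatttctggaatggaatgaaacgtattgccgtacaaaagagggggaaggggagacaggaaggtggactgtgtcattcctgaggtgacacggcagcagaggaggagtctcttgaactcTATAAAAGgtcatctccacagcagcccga
Krt18 (simple type, bright, GRCm38.p6, chr15:102027966-102028215, plus strand): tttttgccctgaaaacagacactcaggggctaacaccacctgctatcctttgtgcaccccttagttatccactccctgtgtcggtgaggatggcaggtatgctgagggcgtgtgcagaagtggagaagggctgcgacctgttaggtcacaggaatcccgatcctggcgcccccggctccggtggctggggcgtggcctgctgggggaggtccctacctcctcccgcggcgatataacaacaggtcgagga
Krt13 (intermediate, below background, GRCm38.p6, chr11:100121567-100121816, minus strand): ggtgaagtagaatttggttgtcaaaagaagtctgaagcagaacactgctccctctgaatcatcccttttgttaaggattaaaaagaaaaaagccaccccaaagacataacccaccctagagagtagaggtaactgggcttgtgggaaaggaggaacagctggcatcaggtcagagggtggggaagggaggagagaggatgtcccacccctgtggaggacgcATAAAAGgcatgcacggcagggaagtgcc
The capitals began 29 bases before the start in Krt5, Krt20 and Krt13, and Krt18 had no match in its window. Such letters were in 5 of the 8 member windows and in 10.2% of all 32851 mouse windows of this length. In Krt7 and Krt8 they began 7 and 1 bases before the start. Among the dim members, 1 of the 2 windows of Krt13 held them and that of Krt14 did not, and Krt4 and Krt15 had no window here. The Krt14 window and the Krt13 window without a match did not lie at the gene's outermost annotated start. The KLF-type letters CCACCC, searched on both strands, were in 6 of the 8 windows against 31.5% of all windows. The AP-1 letters TGANTCA, on both strands, were in 2 of 8 windows, both of Krt13, against 7.8% of all windows. The GATA-type letters AGATAA, on both strands, were in 2 of 8, those of Krt8 and Krt20, against 11.2%. A match is only a string of letters in the window.

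The values are log2 expression values made with RMA, in which the distributions of the arrays are made alike. The medians of the 4 arrays lay between 7.81 and 7.89. A background level of log2 6.58 was taken from 1024 olfactory receptor genes, as the 95th percentile of their means. The deleted genes fitted the labels: Mir145a measured 4.60 and 5.02 in knockout against 8.28 and 8.41 in wild type ureter, and Mir143 measured 6.48 and 6.53 against 7.63 and 7.85, so both lay below background on both knockout arrays (limma, adjusted p = 0.00193 and 0.0148). Precision is limited by there being 1 array for each of 2 mice per genotype, and a difference in a bulk sample cannot tell more urothelial cells from more RNA per cell.

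Of the 10 urothelial keratins, 6 gave strong signal in every ureter and 4 stayed near or below background. Krt5, Krt7, Krt8, Krt18, Krt19 and Krt20 had means over the 4 arrays above log2 10, with single values between 10.51 and 12.98, and each was higher on both knockout arrays than on both wild type arrays, by 1.39-fold to 1.58-fold. Krt14, Krt15, Krt4 and Krt13 had single values between 5.96 and 7.33. This split into bright and dim members was made after the levels were seen. None of the 10 passed an adjusted p of 0.05 over all genes in limma, which called 2.38% of genes in either direction and 1.9% as higher. At an unadjusted limma p under 0.05, 6 members were higher and 1 was lower, against 12.7% and 13.8% of all genes.

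**Figure D1:**
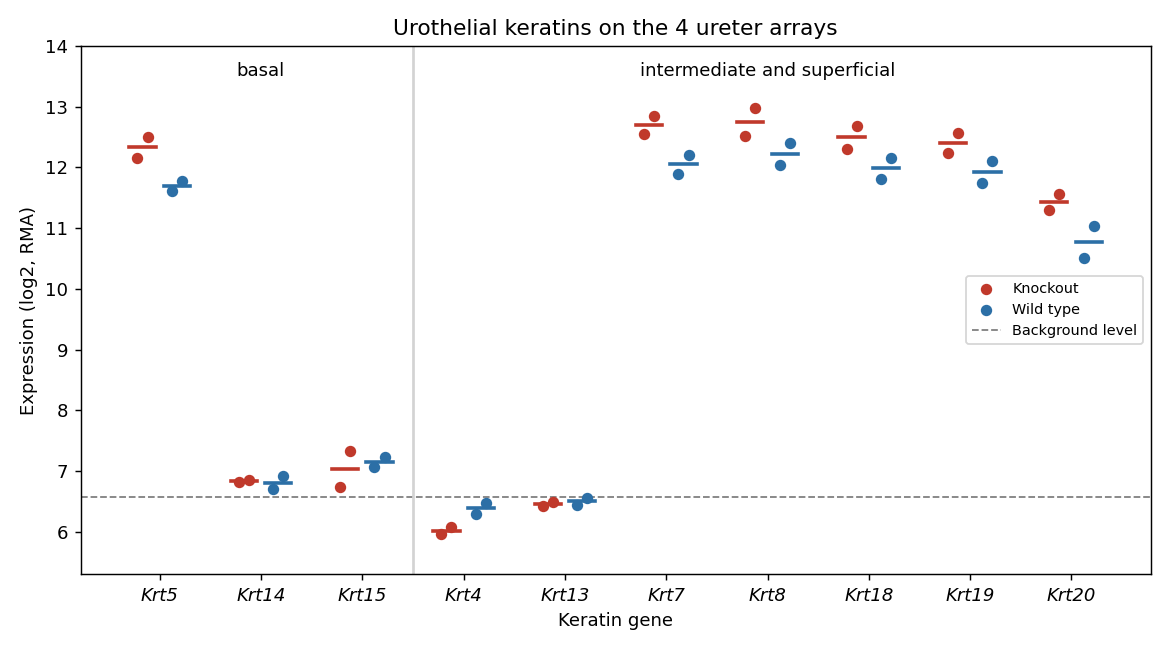
Log2 expression of the 10 urothelial keratins; each point is 1 mouse, bars are the means of 2 knockout or 2 wild type mice, and the dashed line is the background level of 6.58. For Krt5, Krt7, Krt8, Krt18, Krt19 and Krt20 both knockout points lie above both wild type points, while Krt14, Krt15, Krt4 and Krt13 lie near or below the line.

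Krt5 measured 12.16 and 12.50 in knockout ureter and 11.61 and 11.77 in wild type ureter. The genotypes did not overlap, and the difference was 0.64 (SE 0.15, 95% interval 0.29 to 0.998), or 1.56-fold, with a limma adjusted p of 0.0692. Its basal companions lay near background. Krt14, its classical partner, measured 6.81 and 6.86 in knockout and 6.71 and 6.91 in wild type ureter, just above background, with overlapping genotypes and a difference of 0.03 (95% interval -0.27 to 0.32, adjusted p = 0.916). Krt15 measured 6.74 and 7.33 in knockout and 7.07 and 7.22 in wild type ureter. The knockout mice lay on either side of the wild type mice, and the difference was -0.12 (95% interval -0.58 to 0.35, adjusted p = 0.742). The type I keratins with bright signal were Krt18, Krt19 and Krt20, and not the basal partners of Krt5.

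Krt20, the keratin of umbrella cells, measured 11.30 and 11.56 in knockout ureter and 10.51 and 11.03 in wild type ureter. The genotypes did not overlap, but the wild type mice were 0.52 apart, and the difference of 0.66 (SE 0.19, 95% interval 0.20 to 1.11), or 1.58-fold, had an adjusted p of 0.0968. The keratins of the simple type differed by similar amounts. Krt7 measured 12.56 and 12.85 in knockout and 11.90 and 12.21 in wild type ureter, a difference of 0.65 (SE 0.16, 95% interval 0.27 to 1.03, adjusted p = 0.0732). Krt8 measured 12.52 and 12.98 in knockout and 12.04 and 12.39 in wild type ureter, and its partner Krt18 measured 12.31 and 12.68 against 11.80 and 12.16. The lower knockout mouse lay only slightly above the higher wild type mouse for both genes, with differences of 0.53 (95% interval 0.08 to 0.98, adjusted p = 0.141) for Krt8 and 0.51 (95% interval 0.09 to 0.93, adjusted p = 0.132) for Krt18. Krt19 measured 12.24 and 12.56 in knockout and 11.74 and 12.11 in wild type ureter, with a similarly narrow gap between the genotypes. Its difference was 0.48 (95% interval 0.07 to 0.88, limma adjusted p = 0.139).

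Krt4 and Krt13, partners in moist stratified epithelia, lay below the background level on all 4 arrays. Krt4 measured 5.96 and 6.08 in knockout and 6.29 and 6.48 in wild type ureter, so the knockout mice were lower without overlap (difference -0.37, adjusted p = 0.126). Krt13 measured 6.43 and 6.49 in knockout and 6.44 and 6.56 in wild type ureter, with overlapping genotypes (difference -0.04, adjusted p = 0.862). No fold is given for either gene, since both genotypes lay below background. Genes of this level tended to read lower in knockout whatever they encode: of 5069 genes below background in both genotypes, 73.6% had a negative difference and 42.8% lay lower on both knockout arrays, with a median of -0.12.

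Counted together, 6 of the 10 members lay higher on both knockout arrays and 1, Krt4, lay lower on both, while 28% and 32% of all genes did so. Among the 2649 genes with means above log2 10, 37.1% lay higher on both knockout arrays, with a median difference of 0.03. The median difference was 0.49 over the 10 members and 0.59 over the 6 bright ones, against -0.02 over all genes. Among genes outside the set, 1366 differed upward by at least as much as Krt19, the bright member with the smallest difference. The bright keratins moved together between mice of one genotype as well. All 6 were higher in knockout mouse 2 than in knockout mouse 1, by 0.26 to 0.46, and higher in wild type mouse 2 than in wild type mouse 1, by 0.16 to 0.52. They therefore do not count as 6 independent observations.

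The calls depended on which mice entered. Without knockout mouse 1, limma called Krt5, Krt7, Krt8, Krt18 and Krt20 as higher (adjusted p 0.0113 to 0.0366), when 5.78% of all genes were called higher, and Krt19 had an adjusted p of 0.0556. Without knockout mouse 2, wild type mouse 1 or wild type mouse 2, it called 0 of the 10. It then called 2.95% of all genes without knockout mouse 2 and 0 without either one of the wild type mice. A lone mouse is assumed in these fits to vary like the mice of the other genotype. The differences of the 6 bright members stayed positive in all 4 of these fits, from 0.29 for Krt19 to 0.92 for Krt20. Over all settings run, the adjusted p was 0.0113 to 0.246 for Krt5 and 0.0172 to 0.229 for Krt7.

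**Figure D2:**
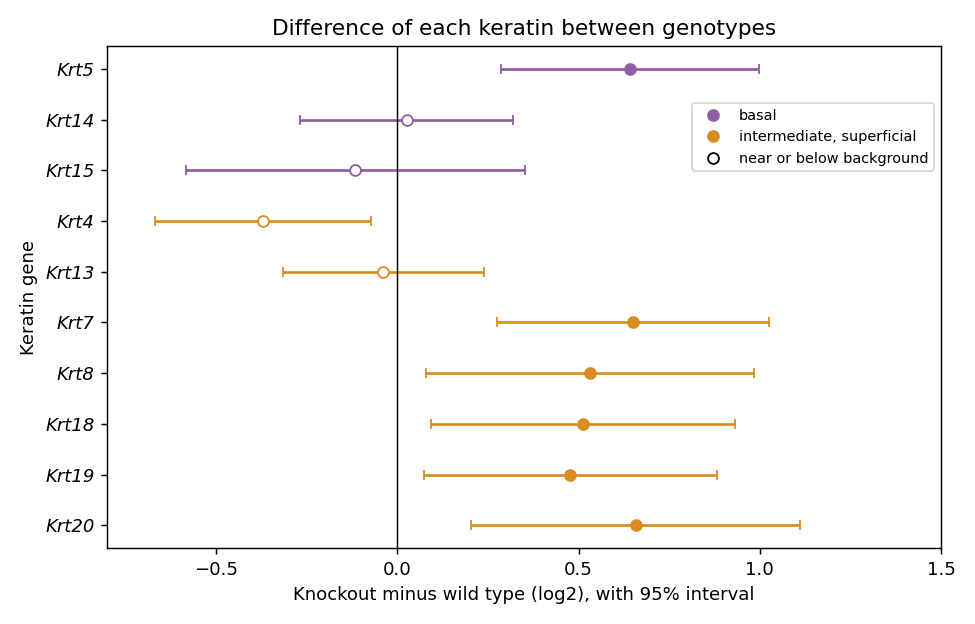
Difference of each keratin between knockout and wild type ureter on the log2 scale, with the 95% interval of the limma fit; purple marks basal and orange intermediate and superficial keratins, and open points are members near or below background. Krt5 at 0.64 lies beside Krt7 at 0.65 and Krt20 at 0.66, and the other members with open points lie between -0.37 and 0.03.

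Whether basal keratins differed from those of the upper layers turned on the dim members, since Krt5 was the only bright basal keratin. The mean difference was 0.18 over the 3 basal keratins and 0.35 over the 7 intermediate and superficial ones, which makes -0.16 for basal minus upper. Centred per array, basal minus upper was -0.11 and -0.05 in knockout and 0.15 and 0.01 in wild type mice, without overlap. The sign of this value depended on the members counted: it was 0.08 with the bright members alone, Krt5 against the mean of Krt7, Krt8, Krt18, Krt19 and Krt20, and 0.10 with Krt4, Krt13 and Krt20 as the upper keratins. With Krt13 counted as basal it was -0.28, and without the below-background members Krt4 and Krt13 it was -0.38. Within an array, the log2 ratio of Krt5 to Krt20, centred on its mean over the arrays, was -0.05 and 0.03 in knockout and 0.19 and -0.17 in wild type mice, so the wild type mice enclosed the knockout mice. The ratio of Krt8 to Krt18 was still closer to constant, at -0.03 and 0.05 in knockout and -0.01 and -0.01 in wild type mice. That of Krt7 to Krt19 was 0.10 and 0.07 in knockout and -0.06 and -0.12 in wild type mice, a difference of 0.17 without overlap. With 2 mice per genotype these ratios carry no test.

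The rest of the keratin family was dim in these ureters. The array held 42 other keratin genes, 22 on chromosome 11 and 20 on chromosome 15, with means over the 4 arrays from 5.03 to 8.40. Of these, 13 lay above background on all 4 arrays, and 12 of the 13 had a negative difference: Krt33b, Krt80, Krt79, Krt87, Krt10, Krt75, Krt90, Krt88, Krt42, Krt12, Krt34 and Krt77, with differences from -0.36 to -0.04. The other one was Krt23, a type I keratin, at 7.72 and 8.30 in knockout and 7.21 and 7.59 in wild type ureter. Its genotypes did not overlap, and its difference of 0.61 (adjusted p = 0.135) was of the size seen in the bright members. Over the 42 genes, 2 differences were positive and 40 negative, with a median of -0.22, and limma called 0. At an unadjusted limma p under 0.05, 1 was higher and 10 were lower, against 12.7% and 13.8% of all genes. Of all genes below background in both genotypes, 73.6% had a negative difference, with a median of -0.12. That share does not cover the 13 genes above background, and no share is given here for genes of their level. The lowest adjusted p was 0.0581, for Krt9, which is below background in both genotypes.

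**Figure D3:**
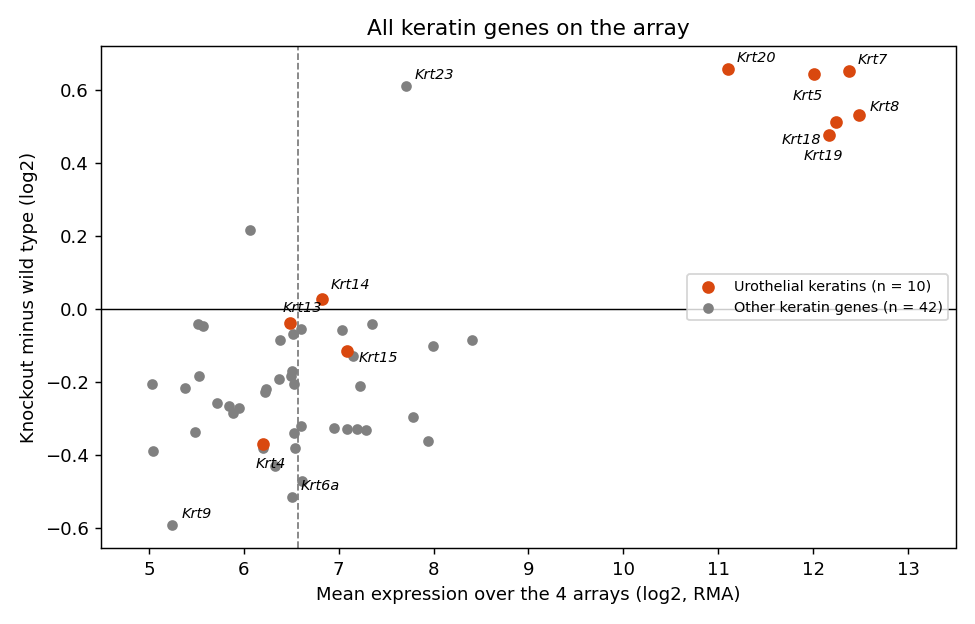
Each point is 1 of the 52 keratin genes, with the mean log2 expression over the 4 arrays on the horizontal axis and knockout minus wild type on the vertical axis; orange points are the 10 urothelial keratins and the dashed line is the background level. The 6 bright members stand at the upper right, and Krt23 at 0.61 is the only other gene with a positive difference of that size. Krt9 at -0.59 and Krt6a at -0.52 differ downward by similar amounts. Levels of different probe sets are not amounts that can be ranked.

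Most measured neighbours of the bright members were dim keratins. Next to Krt5 in the gene order stood Krt6a and Krt71, at mean levels of 6.25 and 6.43 in knockout and 6.76 and 6.60 in wild type ureter, with negative differences. Krt7 stood between Krt80 and Krt87, and Krt8 had Krt78 on one side and Krt18 on the other. Krt19 followed Krt13 and Krt15 and preceded Krt9, and Krt20 lay between Krt12 at -0.33 and Krt23 at 0.61. Eif4b, a translation factor gene on the far side of Krt18, differed by 0.07 (adjusted p = 0.721).

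Keratins of stress and cornification, which stratified epithelia make in wounds or in a cornified layer, were not bright in either genotype. Of 7 such genes, Krt1, Krt2, Krt6a, Krt6b, Krt10, Krt16 and Krt17, limma called 0. At an unadjusted limma p under 0.05, 0 were higher and 1, Krt17, was lower, against 12.7% and 13.8% of all genes. Krt6a measured 5.95 and 6.55 in knockout and 6.50 and 7.03 in wild type ureter, and Krt10, a keratin of cornifying layers, measured 7.27 and 7.39 against 7.30 and 7.45. The genotypes overlapped for both. Of 8 listed genes of squamous epithelium and skin, 4 were tested and 1 lay above background. This was Ivl, which encodes involucrin, at 11.60 and 12.22 in knockout and 11.56 and 11.96 in wild type ureter. Ivl was thus bright in every ureter, and it did not separate the genotypes (difference 0.14, limma adjusted p = 0.719).

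The genes that anchor keratin filaments gave a mixed picture. Desmosomes join keratin filaments of neighbouring cells. Of 12 tested genes of desmosomes and keratin linkers, 8 lay higher and 1 lower on both knockout arrays, against 28% and 32% of all genes. The lower gene was Pkp1, at -0.24, and Pkp2 and Dsc3 differed by -0.14 and -0.12 with overlapping genotypes. From this list limma called 0. At an unadjusted limma p under 0.05, 5 were higher, against 12.7% of all genes, and the median was 0.25. Perp, a membrane protein of desmosomes, measured 11.71 and 12.13 in knockout and 11.05 and 11.25 in wild type ureter (difference 0.77, adjusted p = 0.0607). The desmosomal cadherin gene Dsg2 differed by 0.62 (adjusted p = 0.0659). Hemidesmosomes tie the basal cells to the basement membrane. Of 9 tested genes of basal attachment, 6 lay higher and 1 lower on both knockout arrays, against 28% and 32% of all genes. In limma 2 passed and both rose, where 1.9% of all genes did, and the median was 0.38. Lamb3, a laminin chain of epithelial basement membranes, rose to 9.36 and 9.26 in knockout ureter, against 8.41 and 8.57 in wild type ureter (1.76-fold, adjusted p = 0.0353). Itga3, a laminin-binding integrin chain, rose to 9.29 and 9.36 in knockout ureter, against 8.58 and 8.62 in wild type ureter (1.65-fold, adjusted p = 0.0368). The other members of that list, named after their values were seen, did not pass. Itgb4, Lama3, Plec and Dst were higher on both knockout arrays (differences 0.65, 0.55, 0.38 and 0.18). Col17a1, a transmembrane collagen of hemidesmosomes, measured 7.06 and 7.20 in knockout and 7.35 and 7.52 in wild type ureter (difference -0.30). Itga6 and Cd151 differed by 0.04 and 0.02, with overlapping genotypes.

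The bright keratins ran in parallel with other urothelial genes from mouse to mouse. Gene-centred means of the 6 bright keratins were 0.12 and 0.46 in knockout mice 1 and 2, and -0.46 and -0.12 in wild type mice 1 and 2. Those of the 4 uroplakins, the membrane proteins of the apical plaque, were 0.06 and 0.46 in knockout and -0.34 and -0.18 in wild type mice. The uroplakins had a median difference of 0.52, and 4 of 4 lay higher on both knockout arrays, where 28% of all genes did. Of them limma called 0, with Upk2 at 0.67 (adjusted p = 0.0813) and Upk3a at 0.63 (adjusted p = 0.098). All 4 uroplakins lay far above background, between 10.82 and 13.40 on single arrays, so the samples held urothelium.

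Urothelial transcription factors and epithelial adhesion genes had larger median differences than the 0.59 of the bright keratins, though the lists were not tested against each other. Of 10 such factors 2 passed, both as rises, where 1.9% of all genes did, and the median was 0.75. Grhl2, a grainyhead factor of epithelial cells, rose to 8.89 and 8.90 in knockout ureter, against 7.70 and 7.96 in wild type ureter (2.10-fold, adjusted p = 0.0238), and the basal cell factor Trp63 rose as well (adjusted p = 0.0486). Of 10 adhesion genes 2 rose, against the same 1.9% of all genes, and the median was 0.72. They were Cldn8 (adjusted p = 0.0386) and Esrp1, an epithelial splicing regulator counted in that list, at 1.86-fold (adjusted p = 0.0403). The mean of the bright keratins minus that of the factors, centred per array, was -0.09 and -0.05 in knockout and 0.07 and 0.07 in wild type mice, a difference of -0.14 without overlap. The same value against the adhesion genes was -0.12, also without overlap, and against the uroplakins 0.05 with overlapping genotypes. These list values have no test.

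**Figure D4:**
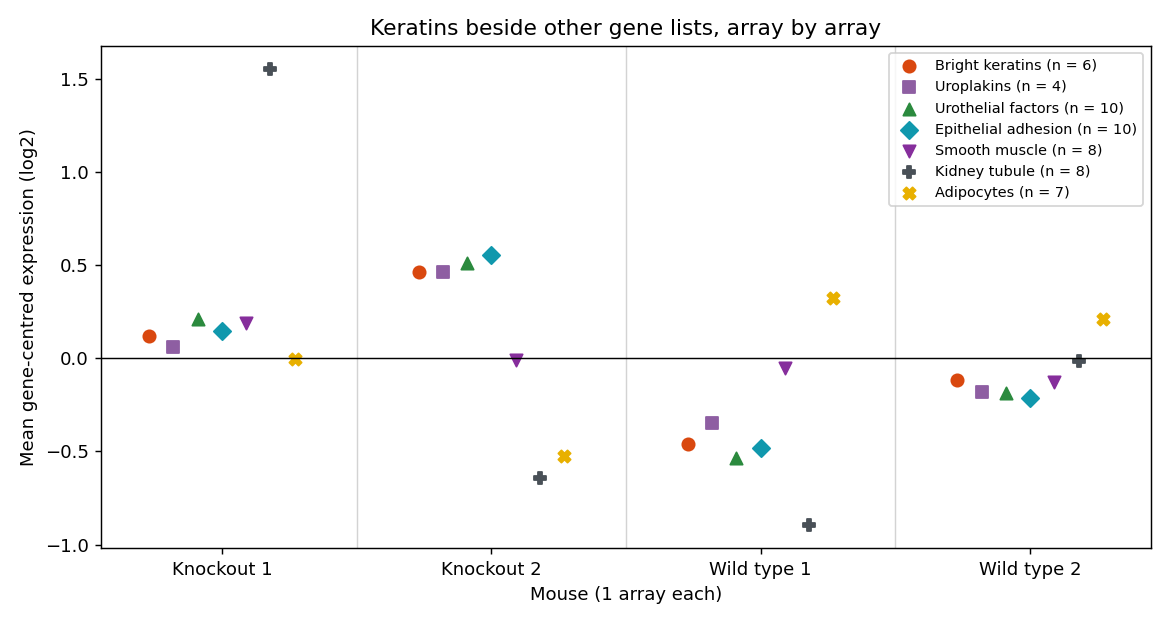
Mean gene-centred log2 expression of 7 gene lists on each of the 4 arrays. The bright keratins lie with the uroplakins, urothelial factors and epithelial adhesion genes on every array, highest in knockout mouse 2 and lowest in wild type mouse 1, while the kidney tubule list is highest in knockout mouse 1 and the adipocyte list is lowest in knockout mouse 2.

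Markers of other cells also moved between the mice, and their part in the keratin differences was not tested. The 8 genes of the proximal tubule and kidney averaged 9.02 and 6.83 in knockout mice 1 and 2 and 6.57 and 7.45 in wild type mice 1 and 2. Of these, 3 lay above background on all arrays. Cubn alone lay higher on both knockout arrays (difference 1.15, limma adjusted p = 0.076). The bright keratins were higher in mouse 2 than in mouse 1 of both genotypes. The kidney list was lower in mouse 2 than in mouse 1 among knockout mice and higher in mouse 2 among wild type mice. The 7 adipocyte genes averaged 12.45 and 11.93 in knockout and 12.78 and 12.67 in wild type mice. Of the 7, 6 were lower on both knockout arrays, where 32% of all genes were. Adipoq, an adipocyte hormone gene, differed by -0.73 (adjusted p = 0.0869). The 8 smooth muscle genes averaged 11.58 and 11.39 in knockout and 11.35 and 11.27 in wild type mice. Of these, 6 lay higher and 1 lower on both knockout arrays, against 28% and 32% of all genes. Cnn1, a calponin gene, differed by 0.49 (limma adjusted p = 0.0767). The lower gene was Des, at -0.30, and Synpo2 differed by -0.23 with overlapping genotypes.

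Markers of other epithelia that make simple keratins were mixed, and their part in the keratin differences was not tested either. Of 7 tested mesothelial genes, 6 reached background in at least 1 genotype, the list averaged 7.62 and 7.88 in knockout and 7.62 and 7.94 in wild type mice, and the defining gene Msln lay at 6.34 and 6.63 against 6.51 and 6.81. Upk3b, listed there but also a uroplakin, was bright at 11.99 and 12.32 in knockout and 11.40 and 11.76 in wild type ureter. Of 8 genes of the male accessory glands, 0 had a mean above background in either genotype. Of 8 collecting duct genes, 3 lay higher and 1 lower on both knockout arrays, against 28% and 32% of all genes. Those higher were Aqp3, Scnn1g and Scnn1b (differences 0.62, 0.70 and 0.52, limma adjusted p = 0.106, 0.0744 and 0.121), with Aqp3 and Scnn1g bright. All 3 were higher in mouse 2 than in mouse 1 of both genotypes, as the bright keratins were. Which cells made these RNAs was not tested. The lower gene was Aqp2, the water channel of the duct, at 7.53 and 7.40 in knockout and 7.65 and 7.95 in wild type ureter. The genotypes overlapped for Avpr2, Atp6v1g3, Hsd11b2 and Calb1 (differences 0.04, -0.19, 0.20 and 1.10). Calb1 was above background in knockout mouse 1 alone. Of 8 other intermediate filament genes limma called 0, with a median of -0.12; Vim, the filament of mesenchymal cells, differed by -0.05, and Synm, a muscle filament gene, by -0.54 (adjusted p = 0.115).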

How the data were processed

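Total RNA of 4 ureters, 500 ng each, was measured on an Affymetrix whole-transcript array. The values are log2 expression values deposited by the authors; per the submitters' processing notes they were made with RMA, R 2.15.0 and limma 3.12.1. No source used here gives the probe sets' genome build. Of 23309 probe sets, 20728 had 1 symbol, 1174 several and 1407 none; only the first kind was named. The brightest probe set over the 4 arrays stood for each of 19296 genes. The labels call the 2 mice of a genotype biological replicates. The genotypes were compared with lmFit and eBayes (no trend) of limma 3.58.1 under R 4.3.3, with Benjamini-Hochberg adjustment over all genes, threshold 0.05; SE and 95% intervals are moderated. The fit was tested on simulated data. Members and gene lists were chosen with earlier results of these data known. Besides all members, the naming rule picked the 2 genes of lowest p among those above background in each further list. Some of these are not named here. The rule also picked keratins above background on all arrays and the 5 genes nearest in pattern. Any other gene named was chosen after its values were seen. Promoter sequences come from RefSeq, build GRCm38.p6. Gene order came from the gene table of the same assembly. Other settings tried were a filter on dim genes, a replicate block, quantile normalization, centred arrays, the mean of probe sets, an intensity trend, robust eBayes, other layer groupings and leaving out each mouse.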

Additional observations from a re-analysis of the deposited data

How the results depend on the processing

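With 2 mice per genotype, signal near background and the small number of arrays limit what can be called. Each of the 6 bright keratins stayed higher in knockout under every alternative run. The count of keratins called was 0 in the fit of all 4 mice, 6 with a replicate block and 0 to 5 when single mice were left out; the other alternatives left it at 0. Across genes the deviations of the mice with the same replicate number correlated at -0.03, yet all 10 members were higher in mouse 2 of both genotypes. The labels name no batch, so whether mice with the same number shared one cannot be told here. Over all genes 459 were called, with 1922 under the replicate block, 902 with robust eBayes, 204 with a further quantile normalization, and 0 to 1744 when single mice were left out. Median-centring the arrays gave 309 rises and 317 falls, against 367 and 92, and the median of all genes moved from -0.02 to -0.10. The basal minus upper value of -0.16 became -0.38 with a filter on dim genes, which removes Krt4 and Krt13, -0.28 with Krt13 as basal, 0.10 with Krt4, Krt13 and Krt20 as the upper keratins, and, in settings added after seeing the data, 0.077 with bright members alone and -0.015 for Krt5 against Krt20; it was -0.23 to -0.09 when single mice were left out. Signs turned for dim members that were never called: Krt13 was 0.13 with quantile normalization, Krt14 was -0.053 with centred arrays, and when single mice were left out Krt13 ran from -0.10 to 0.021, Krt14 from -0.077 to 0.13 and Krt15 from -0.41 to 0.18; the cause was not tested.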

Other observations

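Among 13066 genes outside the set that lay above background on all 4 arrays, the 5 whose gene-centred values lay nearest to the mean of the 10 keratins were Chst10, Ube2d1, Tox2, Prkab1 and Bst1, with root mean square differences of 0.02 on the log2 scale. Measured against the 6 bright keratins alone, a choice made after the levels were seen, the nearest was Upk3b, at 0.01. Its values were 11.99 and 12.32 in knockout and 11.40 and 11.76 in wild type ureter. The next were Ksr2, Dapp1, Lxn and Capg, with differences between genotypes of 0.57, 0.56, 0.61 and 0.59. Over 4 arrays many genes come close, and 41 lay within 0.05 of the bright keratins.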
